A study of Mus musculus with 30 samples.

Results

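The genes described here are the 36 collagen chain genes of the table that do not belong to the classical cartilage set. They were chosen by name: the Entrez gene number of each row was matched to a symbol, every symbol written as Col, a number, a and a number was taken, and the 7 cartilage chains Col2a1, Col9a1, Col9a2, Col9a3, Col10a1, Col11a1 and Col11a2 were left out. This gave 36 of 43 collagen rows and of 23013 gene rows. Of the 36 members, 26 held at least 50 units over all libraries and are described by library, 8 held 1 to 49 units, and Col25a1 and Col4a6 were listed at 0 in every library. Col6a5 was not analysed here.

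Single-cell RNA was measured by Seq-Well, in which cells and barcoded beads share microwells, and the 30 libraries covered 8 organs. The 8 donors were male DBA1/J mice, given in the methods as 8 to 12 weeks old. The 4 CIA mice (S1, S2, S6 and S7) had collagen-induced arthritis: they received 100 µg of bovine collagen II in complete Freund's adjuvant and a booster in incomplete adjuvant on day 20, and their summed arthritis scores were 8, 8, 3 to 4 and 3. The 4 mice without arthritis (called healthy: H3, H4, H6, H7) scored 0 and, per the methods, received buffer alone. The immunizing antigen was itself a cartilage collagen, a protein that adds no mouse RNA. Blood and lymph node came from 4 healthy and 3 CIA mice each. The joint came from H3 and S1, while H6 and S1 gave the thymus, spleen, lung, skin and muscle, so these 6 organs had 1 mouse per state. Joint, lung, muscle and skin were minced and digested with collagenase, whereas thymus, spleen and lymph node were pressed through a strainer and blood was reduced to mononuclear cells. The recovery of tissue-bound cells and the organ cannot be told apart across these procedures. Titles end in CIA or 2CIA, and the labels do not say what the ending stands for.

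Collagens are the main proteins of the extracellular matrix. Each molecule is a triple helix of chains from the same or from different genes, and the helices assemble into fibrils, sheet-like networks or fine filaments, or sit in the cell membrane. Fibroblasts make most of the fibrillar collagen of skin, muscle sheath and joint capsule, while epithelial and vessel cells contribute chains of the basement membrane on which they rest.

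The values are whole-number sums over a barcode and its nearest neighbours, called units here, and levels are scaled to a library total of 1000000 units (UPM). The libraries held 27 to 934 barcodes and 217494 to 7886790 units, and 13 barcode sequences occurred in more than 1 library. The 8282 barcodes had 4590 distinct profiles, so neighbouring barcodes are not independent. The share of low genes varied between libraries: genes whose largest value was 1 made up 12.5% of detected genes in the healthy joint, 37.1% and 6.18% in the CIA joint libraries, 43.5% and 48.9% in healthy and CIA skin, 21.3% and 56.2% in muscle, and 55.2% and 16.9% in lung. A 0 is given as listed at 0. Skin was the tissue with like shares in both states. Fibroblast markers (Dcn, Lum, Pdgfra, Dpt, Fbln1, Mfap5, Gsn and Clec3b) were all above 0 in 1 healthy and 1 CIA joint library, in both skin libraries and in CIA muscle, and 6 of 8 were above 0 in healthy muscle. Healthy muscle went against its label: 2 of 6 skeletal muscle markers were above 0, at 60.6 UPM together, beside 3713 UPM in CIA muscle, while its 6 neutrophil markers summed to 104087 UPM.

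The members held 225455 units in all. Joint, skin and muscle libraries held 99.6% of them, and Col1a1, Col1a2 and Col3a1, the chains of type I and type III collagen, made up 86.1%. Summed over the members, the healthy joint stood at 6686 UPM. The 2 libraries of the CIA joint stood at 22409 UPM (title ending 2CIA) and 9282 UPM (title ending CIA). Skin stood at 3565 UPM in the healthy and 13293 UPM in the CIA mouse. Muscle had the largest ratio between states of these 3 organs, with 299 UPM in the healthy and 7001 UPM in the CIA mouse. Lung stood at 101 UPM in the healthy mouse and was listed at 0 in the CIA mouse. Spleen, thymus, lymph node and blood libraries ranged from 0 to 63.0 UPM, below every joint, skin, muscle and healthy lung library. In sums over a library, fewer cells of a type and less RNA per cell cannot be told apart. The method reads tags at the 3′ end of the transcript, so levels of different chains are compared without a correction for length.

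**Figure D1:**
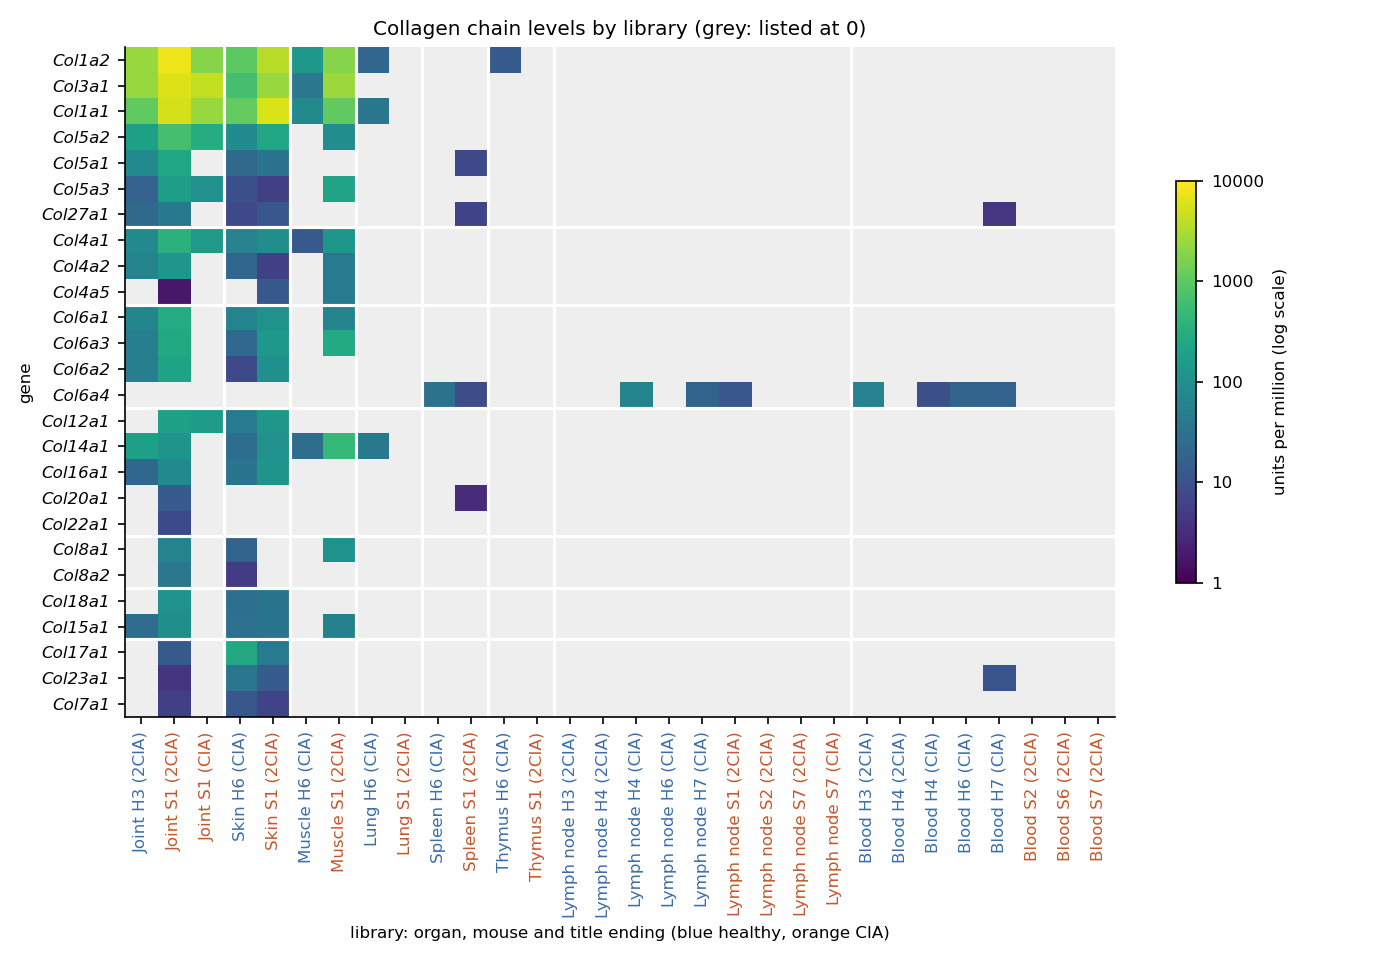
Level of the 26 members with at least 50 units (rows, grouped by structure) in each of the 30 libraries (columns), in UPM on a log colour scale, with grey for listed at 0. The joint, skin and muscle columns carry nearly all of the colour, and Col6a4 is the row with the opposite placement.

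**Figure D2:**
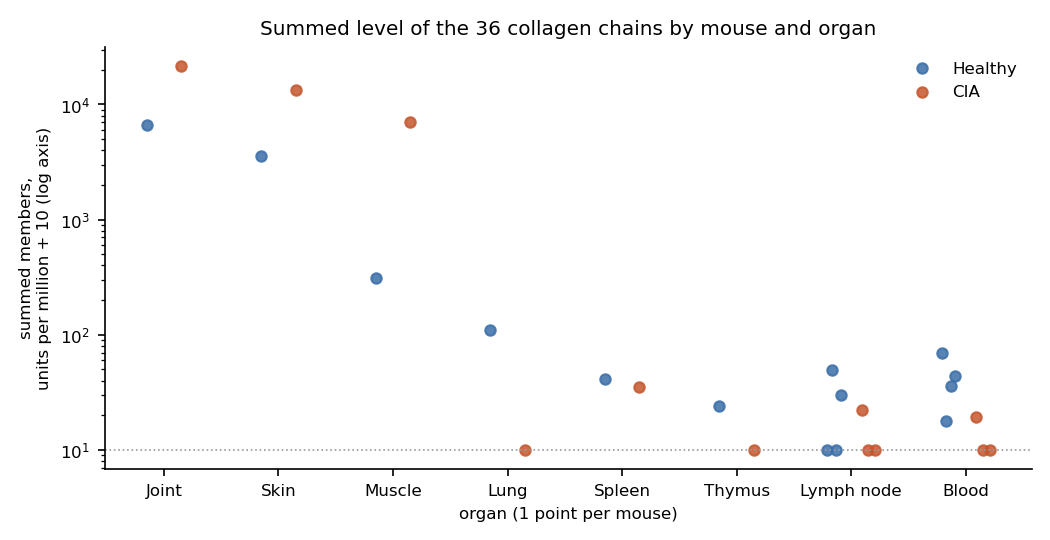
Summed level of the 36 members for each mouse and organ, as UPM plus 10 on a log axis, with healthy mice in blue and CIA mice in orange; the dotted line is a value of 0. The 2 joint libraries of S1 are added up, and the single mice per state of joint, skin and muscle lie above every blood and lymph node mouse.

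The fibrillar chains came first in level. Col1a2, which pairs with Col1a1 chains in type I collagen, the main fibril of skin, tendon and bone, was listed at 2401 UPM in the healthy joint and at 7779 and 1895 UPM in the 2CIA and CIA libraries of the CIA joint. In skin it stood at 972 UPM (healthy) and 3722 UPM (CIA), in muscle at 137 and 1907 UPM, and in healthy lung at 20.9 UPM. The healthy joint thus lay between the 2 libraries of the same CIA mouse, which differed 4.10-fold. Col1a1 was at 1054 UPM in the healthy joint and at 5437 and 2404 UPM in the CIA joint. Its highest value was in CIA skin, at 5935 UPM, beside 1101 UPM in healthy skin. In muscle it was at 83.4 and 1068 UPM and in healthy lung at 37.7 UPM, so each CIA library of these 3 organs exceeded its healthy one. Col3a1, whose type III fibrils accompany type I in extensible tissues, stood at 2377 UPM in the healthy joint and at 6076 and 4269 UPM in the CIA joint. It was at 670.1 and 2389.6 UPM in skin and at 39.0 and 2484 UPM in muscle, and was listed at 0 in both lung libraries.

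The promoters of Col1a2 and Col3a1 are shown because these were 2 of the 3 chains with the highest levels, and that of Col17a1, an epidermal chain, because its placement differed. The windows cover 150 bases before to 50 bases after the RefSeq start on GRCm38.p6, at chr6:4505468-4505667 (+ strand), chr1:45311388-45311587 (+ strand) and chr19:47691993-47692192 (− strand), written 5′ to 3′ on the gene's strand, with capitals for a match, on either strand, to TATAAA (the TATA box), to CCAAT (the CCAAT box) or to GGGCGG (the GC box). The Col1a1 promoter was not used here.
Col1a2: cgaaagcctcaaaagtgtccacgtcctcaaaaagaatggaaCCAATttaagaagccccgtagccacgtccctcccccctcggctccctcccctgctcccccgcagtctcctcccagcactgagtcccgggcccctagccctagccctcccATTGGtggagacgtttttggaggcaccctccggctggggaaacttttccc
Col3a1: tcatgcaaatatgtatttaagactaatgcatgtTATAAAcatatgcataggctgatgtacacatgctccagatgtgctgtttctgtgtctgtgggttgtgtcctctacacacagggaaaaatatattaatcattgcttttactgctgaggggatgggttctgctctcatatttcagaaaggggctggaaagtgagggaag
Col17a1: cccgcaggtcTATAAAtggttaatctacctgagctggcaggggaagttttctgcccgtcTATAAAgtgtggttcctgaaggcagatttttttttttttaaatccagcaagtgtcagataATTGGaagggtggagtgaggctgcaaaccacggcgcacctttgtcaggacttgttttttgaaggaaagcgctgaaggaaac
The Col1a2 window holds CCAAT 109 bases before the start and its reverse complement at the start, the Col3a1 window holds TATAAA 117 bases before the start, and the Col17a1 window holds TATAAA 140 and 91 bases before the start and CCAAT on the opposite strand 31 bases before it. Over the 31 promoter windows of 300 bases that RefSeq gave for 29 members, GGGCGG was found in 61.3%, beside 35.7% of all 32851 windows, CCAAT in 35.5% beside 37.4%, and TATAAA in 9.68% beside 13.6%. The median GC content was 60.0% in the members' windows and 52.7% in all windows. These matches describe the letters alone.

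The proportions of the 3 leading chains differed between libraries, also within an organ. Units of Col1a1 per unit of Col1a2 were 0.439 in the healthy joint and 0.699 and 1.27 in the 2CIA and CIA libraries of the CIA joint. The ratio was 1.13 and 1.59 in healthy and CIA skin and 0.610 and 0.560 in healthy and CIA muscle. Skin was above 1 and muscle below 1 in both mice, while the 2 libraries of the CIA joint lay on either side of 1. Units of Col3a1 per unit of Col1a1 were 2.26, 1.12 and 1.78 in the joint libraries, 0.609 and 0.403 in skin, and 0.468 and 2.33 in muscle. All joint libraries were above 1 and both skin libraries below 1, and the muscle libraries lay on opposite sides. Type I collagen holds 1 Col1a2 chain beside each pair of Col1a1 chains, a proportion of proteins that these RNA ratios do not measure.

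**Figure D3:**
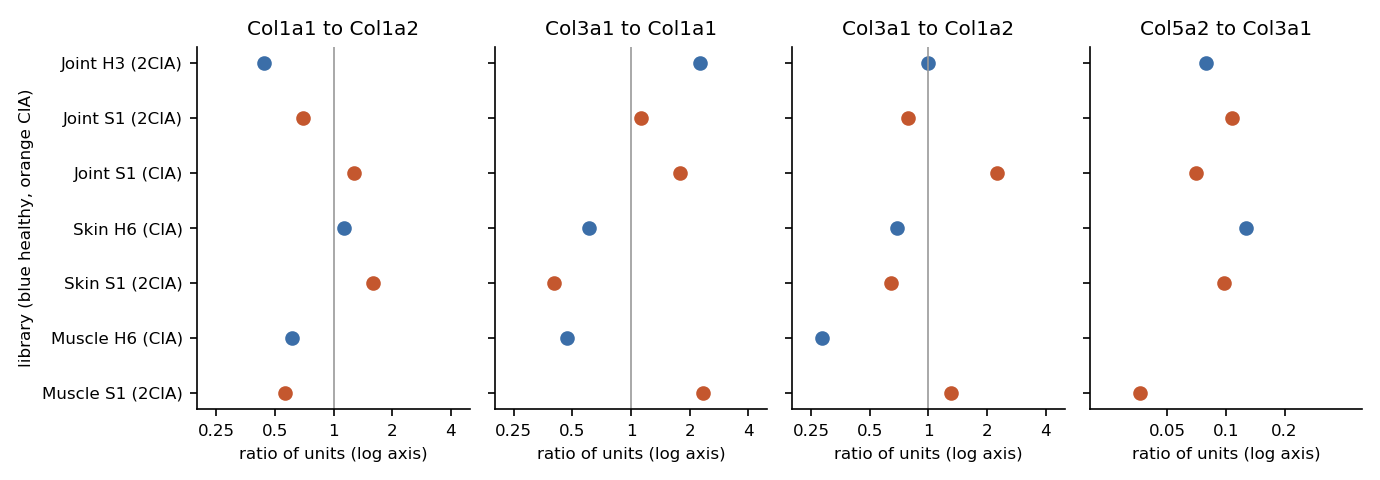
Ratio of the units of paired chains in each joint, skin and muscle library (rows; blue healthy, orange CIA) on a log axis, where both chains had at least 20 units; the grey line is a ratio of 1. Col3a1 exceeded Col1a1 in the joint libraries and stayed below it in skin, and Col5a2 ran between 0.0362 and 0.127 of Col3a1.

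The minor fibrillar chains followed at lower levels. Col5a2, a type V chain that takes part in starting fibrils, stood at 188 UPM in the healthy joint and at 652 and 299 UPM in the CIA joint. It was at 85.4 and 233 UPM in skin, and at 89.8 UPM in CIA muscle beside 0 in healthy muscle. Col5a2 lies next to Col3a1 on chromosome 1. Its units per unit of Col3a1 stayed between 0.0362 and 0.127 over 6 libraries. Col5a1, its partner chain, was at 77.8 UPM in the healthy joint and at 233 and 0 UPM in the CIA joint, with 24.1 and 33.1 UPM in skin. Col5a3 was at 17.8 UPM in the healthy joint, at 172 and 107 UPM in the CIA joint and at 213 UPM in CIA muscle, and at 9.31 and 5.64 UPM in skin. Col27a1 reached 41.6 UPM in the CIA joint, and Col24a1 was listed in 1 library, the 2CIA library of the CIA joint, at 2.79 UPM.

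The network chains of the basement membrane were led by Col4a1, which joins Col4a2 in the collagen IV sheet found under nearly all epithelia and vessels. Col4a1 was at 78.3 UPM in the healthy joint and at 362 and 145 UPM in the CIA joint, at 58.6 and 95.8 UPM in skin, and at 13.8 and 130.0 UPM in muscle. Col4a2 was at 64.1, 128 and 0 UPM in the same joint libraries, at 20.8 and 5.64 UPM in skin, and at 44.9 UPM in CIA muscle. Their units stood at 1.22 to 1 in the healthy joint, and at 2.82 to 1 both in the 2CIA library of the CIA joint and in healthy skin. The 2 genes are read in opposite directions from a shared stretch of chromosome 8, where their RefSeq promoter windows overlap over 78 bases at chr8:11312777-11312854, written on the + strand with a GGGCGG in capitals.
Col4a1 and Col4a2: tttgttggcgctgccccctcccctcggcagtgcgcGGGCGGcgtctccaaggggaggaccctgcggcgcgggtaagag
The annotated genes overlap on opposite strands there, and each also overlaps another annotated transcript. Whether counting used strand is not given in the sources used here, so both levels are uncertain. Col4a5, a chain of kidney basement membranes, reached 44.9 UPM in CIA muscle. Col4a3 and Col4a4 held under 50 units.

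Among the beaded filament chains, Col6a1, Col6a2 and Col6a3 form collagen VI, a filament around muscle fibres and in the matrix close to cells. Col6a1 stood at 67.6 UPM in the healthy joint, at 289 and 0 UPM in the CIA joint, and at 64.1 and 111 UPM in skin. Col6a3 was highest in CIA muscle, at 274 UPM beside 0 in healthy muscle, and stood at 51.9, 269 and 0 UPM in the joint libraries. Col6a2 had the largest ratio of any member in skin, from 7.66 to 102 UPM. It was at 51.9, 209.7 and 0 UPM in the joint libraries and was listed at 0 in both muscle libraries. All 3 chains were at 0 in the CIA library of the CIA joint, a library in which 7 members were above 0. Genes whose largest value was 1 made up 6.18% of that library's genes, and the part of this low share in these values was not tested.

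Col6a4 had the opposite placement. It codes for another collagen VI chain and lies on chromosome 9, as does Col6a6, with an annotated transcript (Gm47575) on its other strand, so that its reads could in part belong to that transcript. It was listed at 0 in all joint, skin, muscle, lung and thymus libraries. In blood it stood at 59.8 (H3), 7.79 (H4), 19.7 (H6) and 18.2 (H7) UPM in the healthy mice and at 0 in all 3 CIA mice. The healthy and CIA mice did not overlap in blood, with every CIA mouse lower, as was so for 3.65% of the 15244 genes above 0 in blood. In lymph node the healthy mice stood at 0 (H3), 39.0 (H4), 0 (H6) and 19.7 (H7) UPM, and the CIA mice at 12.1 (S1), 0 (S2) and 0 (S7) UPM, so that the states overlapped. Spleen held 31.0 UPM in the healthy and 8.20 UPM in the CIA mouse. All 3 CIA blood libraries end in 2CIA, and of the 5 healthy blood libraries 3 end in CIA. Of the 2 healthy blood libraries that end in 2CIA, H3 held 59.8 UPM, which is 13 units in a library of 27 barcodes, and H4 was at 0.

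The chains that sit on fibril surfaces were Col12a1, Col14a1, Col16a1, Col19a1, Col20a1 and Col22a1. Col12a1, which bridges fibrils in tendon and capsule, was at 0 in the healthy joint, at 195 and 162 UPM in the CIA joint, and at 42.2 and 129.6 UPM in skin. Col14a1, found with mature fibrils, was the one of these with the most organs: 185, 116 and 0 UPM in the joint libraries, 27.9 and 106 UPM in skin, 26.4 and 461 UPM in muscle and 41.9 UPM in healthy lung. The healthy joint exceeded both CIA joint libraries for Col14a1, and the order was the reverse in skin and muscle. Col16a1 was at 21.4, 79.2 and 0 UPM in the joint and at 35.0 and 118 UPM in skin. Col20a1 and Col22a1 reached 14.2 and 7.87 UPM, both in the 2CIA library of the CIA joint.

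The short chains Col8a1 and Col8a2, which make hexagonal lattices under vessel and corneal endothelium, reached 60.6 and 38.7 UPM in the 2CIA library of the CIA joint, and Col8a1 stood at 109 UPM in CIA muscle. The multiplexins Col15a1 and Col18a1, basement-membrane collagens whose ends release endostatin-type fragments, stood at 99.7 and 115 UPM in that joint library. In healthy and CIA skin Col15a1 stood at 32.3 and 35.9 UPM and Col18a1 at 29.0 and 34.5 UPM.

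The membrane-bound and anchoring chains had their highest levels in skin. Col17a1, a transmembrane part of the hemidesmosome that holds basal keratinocytes to the basement membrane, stood at 259 UPM in healthy skin and at 46.5 UPM in CIA skin, with 13.4 UPM in the 2CIA library of the CIA joint and 0 in every other library. Col23a1, another transmembrane chain, was at 36.7 and 14.8 UPM in skin, and at 11.1 UPM in the blood of H7. Col7a1, the anchoring fibril that fastens epidermis to dermis, stood at 6.34 UPM in CIA skin. All 3 were lower in CIA than in healthy skin. The 6 keratinocyte markers went the same way, from 2084 to 1256 UPM in sum, and their part in these values was not tested. The 8 fibroblast markers went from 2478 to 5785 UPM.

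Tissue organs were compared with lymphoid organs and blood over all 26 mouse-by-organ sums, with organ and state in the model. The 8 members that reached the filter, a mean of 25 UPM, did so through joint, skin and muscle, the organs where they are high, so that the filter itself nearly fixed a difference. The values below therefore give its size, and the number called is not support. The spread was pooled over all organs, and all 8 were listed at 0 in every blood and lymph node library. The SEs and p-values thus understate the spread between the mice of the tissue organs. Col1a2 was higher in joint, lung, muscle and skin by 5.61 ± 0.41 (SE) on the log2(UPM + 10) scale (limma, Benjamini-Hochberg adjusted p = 1.79e-12). Col1a1 was higher by 5.54 ± 0.42 (adjusted p = 2.62e-12) and Col3a1 by 5.22 ± 0.43 (adjusted p = 1.31e-11). Col5a2 was higher by 2.74 ± 0.31 (adjusted p = 9.69e-09) and Col4a1 by 2.50 ± 0.29 (adjusted p = 1.53e-08). Col14a1, Col6a3 and Col6a1 were higher by 2.20 to 2.93. All 8 were called, beside 11.8% of the 5480 genes tested called higher and 11.6% lower, and the other 28 members were not tested in this fit. Without the filter on low values, 20 of 34 members above 0 were called higher, beside 9.26% of 20704 genes. None was called lower without the filter, and Col6a4 had a difference of -0.77 ± 0.33 (adjusted p = 0.133). Without mouse S1, which gave 1 of the 2 mice in each tissue organ, Col1a1, Col1a2 and Col3a1 alone reached the filter and were called. Without the 2CIA library of the CIA joint, 5 members reached it and were called, and with healthy mice alone 3.

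The joint was next set against lung, muscle and skin over their 8 sums, with 3 residual degrees of freedom. Col3a1 was higher in the joint by 4.74 ± 0.69 (log2(UPM + 10) scale, limma, adjusted p = 9.46e-04), Col1a2 by 4.25 ± 0.67 (adjusted p = 0.00213), Col5a2 by 3.53 ± 0.74 (adjusted p = 0.0283) and Col1a1 by 3.42 ± 0.74 (adjusted p = 0.0349). These were 4 of 17 members tested, beside 0.639% of 5788 genes called higher and 0 called lower, and the median over all genes was a difference of 0.29. A member high in the joint could reach the filter through the joint, so this count is a description. Among the 17, Col17a1 was the single member with a negative difference, -0.46 ± 0.95 (adjusted p = 0.973). Without the filter, 0 of 33 members above 0 were called, beside 6 of 18471 genes. With the mouse as a paired block, 0 of the 17 were called. H3 gave the joint alone among these sums, so the joint difference rests on S1 both in that fit and without H3. Without H3 the differences were 4.65 (Col3a1), 4.87 (Col1a2), 4.05 (Col5a2) and 4.43 (Col1a1). The count was also 0 without lung, and 1 (Col3a1) without the 2CIA library of the CIA joint. Over 10 alternative fits the difference ran from 2.71 to 5.89 for Col3a1 and from 2.27 to 4.91 for Col1a2. For Col5a2 it ran from 2.47 to 5.21 and for Col1a1 from 1.60 to 4.43. The healthy and CIA lung libraries had 4 and 0 of 8 fibroblast markers above 0, and CIA skin exceeded the healthy joint in all 4 called members, for Col3a1 with 2389.6 against 2377 UPM and for Col5a2 with 233 against 188 UPM. CIA muscle exceeded it in Col3a1 and Col1a1. Of 6 neutrophil markers 5 were also called higher in the joint, and so were Lum of the fibroblast markers, Comp of the chondrocyte markers and Ibsp, a gene of bone-forming cells. Their part in the members' differences was not tested.

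Lymph node and blood had replicate mice, and no member reached the filter there, so the comparison of the organs and those of CIA with healthy mice give no call on members. Without the filter, 5 members above 0 were tested between lymph node and blood and 0 were called, beside 1.07% of genes. Col6a4 differed by -0.30 ± 0.50 (limma, adjusted p = 0.754), lymph node minus blood. Between CIA and healthy blood, 0 of 5 members were called without the filter, beside 0.0787% of genes. Col6a4 had the smallest p of the 5, with -1.75 ± 0.90 in CIA minus healthy blood (limma, adjusted p = 0.617). In lymph node Col6a4 was the one member above 0, with -0.62 ± 0.67 (limma, adjusted p = 0.897), beside 0.0515% of genes called. None of these differences exceeded the spread between mice after adjustment.

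In organs with 1 mouse per state the ratio of CIA to healthy describes those mice and has no test. In the joint, with both CIA libraries added, the members together stood 3.21-fold higher in the CIA mouse. Of the 15 members with at least 50 units and above 0 in both states, 14 were over 1.5-fold higher, beside 11.6% of 7449 genes, and 1 was over 1.5-fold lower. The median log2 ratio was 1.78 for these members and -0.55 for all these genes. The largest ratios were those of Col5a3 (9.40), Col1a1 (4.96) and Col6a3 (4.83), and Col14a1 was 1.70-fold lower. With trimmed-mean scaling every joint log2 ratio was higher by the same amount, and that of Col14a1 went from -0.77 to -0.09. Under it 14 members were again over 1.5-fold higher, beside 32.5% of genes, and 0 were over 1.5-fold lower. With the median of ratios these were 14 members, 22.8% of genes and 0. In the CIA-ending library alone, 9 of these 15 members were listed at 0, 5 were over 1.5-fold higher and 1 was lower, so the count of 14 rests on the 2CIA library. The CIA-ending library gave a log2 ratio of 0.47 for the sum, 1.19 for Col1a1, 0.84 for Col3a1 and -0.34 for Col1a2, so Col1a2 was lower than in the healthy joint there. The fibroblast markers moved the other way, from 18151 UPM in the healthy joint to 5149 and 4426 UPM in the CIA joint libraries, of which Dcn and Gsn made up most. Per unit of these markers the log2 ratio of the summed members was 3.52. Under that scaling all 15 members were over 1.5-fold higher, as were 70.7% of the 7449 genes.

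In skin the members together stood 3.73-fold higher in the CIA mouse. Of the 16 members with at least 50 units, 11 were over 1.5-fold higher, beside 27.2% of 7091 genes, and Col17a1 and Col23a1 were over 1.5-fold lower. The largest ratios were those of Col6a2 (13.3), Col6a3 (5.82) and Col1a1 (5.39), while Col17a1 was 5.57-fold and Col23a1 2.48-fold lower. With each distinct profile counted once in place of once per barcode, the log2 ratio of the sum went from 1.90 to 0.43, that of Col1a1 from 2.43 to 0.79, that of Col6a2 from 3.74 to 1.32, that of Col6a3 from 2.54 to 0.53, and that of Col17a1 from -2.48 to -1.51. The log2 ratio of Col23a1 fell further with distinct profiles, from -1.31 to -2.92. Counted this way, 5 of the 16 members were over 1.5-fold higher, beside 26.9% of genes, and Col5a2 (-0.45) and Col6a1 (-0.53) turned negative. Per unit of the fibroblast markers the sum had a log2 ratio of 0.68 and Col1a1 one of 1.21, and 6 of the 16 were over 1.5-fold higher, beside 6.47% of genes under that scaling, and 5 over 1.5-fold lower.

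In muscle the members together stood 23.4-fold higher in the CIA mouse, and all 5 members with at least 50 units and above 0 in both states were over 1.5-fold higher, beside 46.7% of 5007 genes. The CIA muscle library was small, with 54 barcodes, 16 distinct profiles and 423083 units. Healthy muscle had 421 barcodes, 245 distinct profiles and 3333298 units. Col3a1 had the largest ratio, 63.7, followed by Col14a1 (17.5) and Col1a2 (13.9). Fibroblast markers went from 619.5 to 14983 UPM and skeletal muscle markers from 60.6 to 3713 UPM between the same libraries, whereas neutrophil markers went from 104087 to 18349 UPM. Per unit of the fibroblast markers the log2 ratio of the sum was -0.05, and 4 of the 5 members turned negative: Col4a1 (-1.36), Col1a1 (-0.92), Col1a2 (-0.79) and Col14a1 (-0.47). Col3a1 had a positive one of 1.40, and 0.280% of genes were over 1.5-fold higher under that scaling. In spleen Col6a4 was the one member with at least 50 units. In lung no member had that many, and in thymus only Col1a2 was listed, at 14.2 UPM in the healthy mouse. The title ending differs between the states in skin, muscle, lung, spleen and thymus and cannot be told apart from them.

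**Figure D4:**
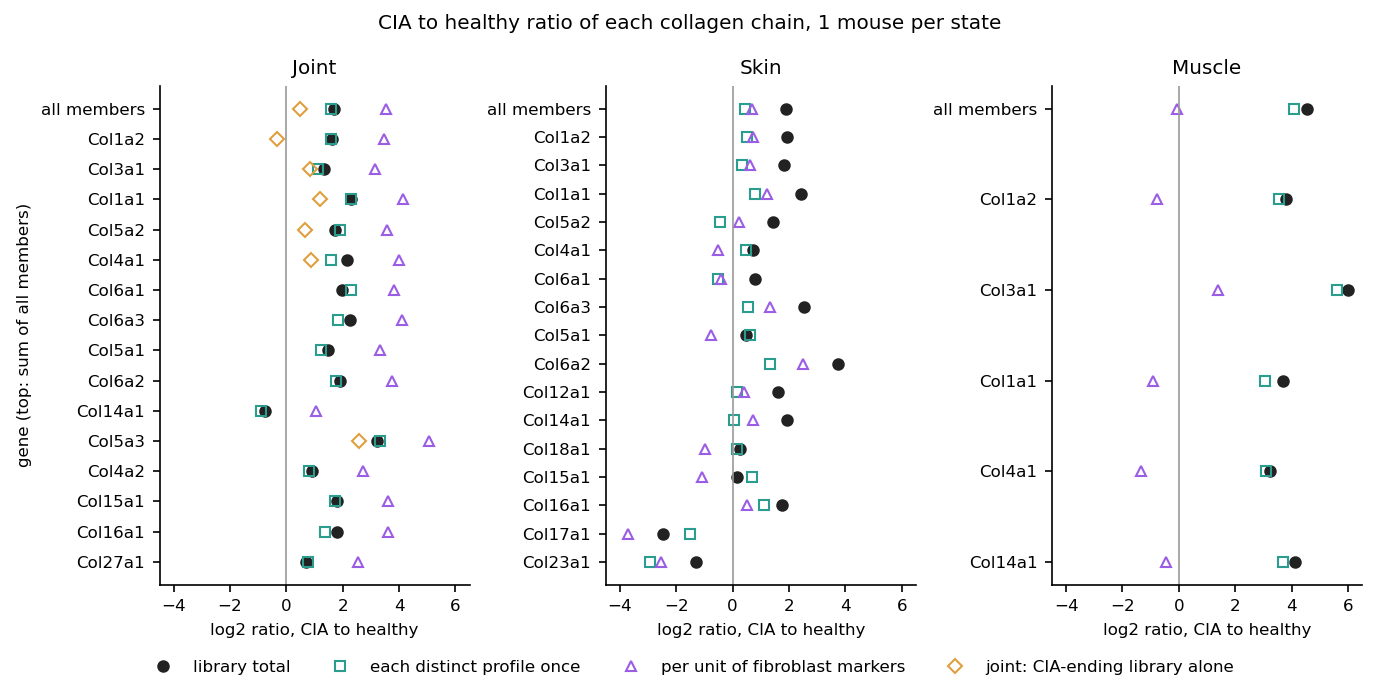
Log2 ratio of CIA to healthy for the summed members (top row) and for each member with at least 50 units and above 0 in both states, in joint, skin and muscle with 1 mouse per state. Black points are scaled by the library total, and open symbols give the ratio with each distinct profile counted once, per unit of the fibroblast markers, and, in the joint, from the CIA-ending library alone. Triangles lie right of the black points in the joint and left of them in skin and muscle.

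In each joint, skin and muscle library except healthy skin, most chains with at least 20 units lay in the barcodes with the most fibroblast-marker units. Leaving out Col17a1, over 50% of the units lay there for 11 of 15 members in the healthy joint, 7 of 7 in the CIA library of the CIA joint, 4 of 5 in healthy muscle and 7 of 11 in CIA muscle. In the 2CIA library of the CIA joint, the 25% of barcodes highest in these markers held 29.7% of all units, 91.7% of the Col1a2 units, 92.3% of the Col1a1 units and 89.5% of the Col3a1 units. Of 24 members with at least 20 units there, leaving out Col17a1, 19 had over 50% of their units in it. The 5 exceptions were Col4a1, Col4a2, Col18a1, Col20a1 (18.8%) and Col7a1 (33.3%). The 25% of barcodes highest in endothelial markers, with 25.2% of all units, held 59.1% of Col4a1, 50.5% of Col4a2 and 49.9% of Col18a1, and the 25% highest in keratinocyte markers, with 25.3% of all units, held 82.1% of Col17a1 and 58.0% of Col20a1. Col7a1 had under 50% in each of these sets. In CIA skin, 93.3% of the Col1a1 units and 0% of the Col17a1 units lay in the fibroblast-marker barcodes chosen this way, and 57.6% of Col17a1 lay in the keratinocyte-marker ones. In healthy skin the separation was less: 40.5% of the Col1a1 units and 52.3% of the Col1a2 units lay in the fibroblast-marker barcodes, which held 18.5% of all units, and 7 of 17 members had over 50% there, beside 12 of 15 in CIA skin. In healthy muscle the sets overlapped. Of the Col1a1 units, 85.6% lay in the fibroblast-marker, 80.9% in the keratinocyte-marker and 74.8% in the endothelial-marker barcodes. For Col1a2 these shares were 90.1%, 59.9% and 43.6%, and for Col3a1 88.5%, 45.4% and 13.1%. The fibroblast-marker placement was thus less separate there too. Smoothing adds the counts of neighbours, so these shares describe neighbourhoods of barcodes and not single cells.

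**Figure D5:**
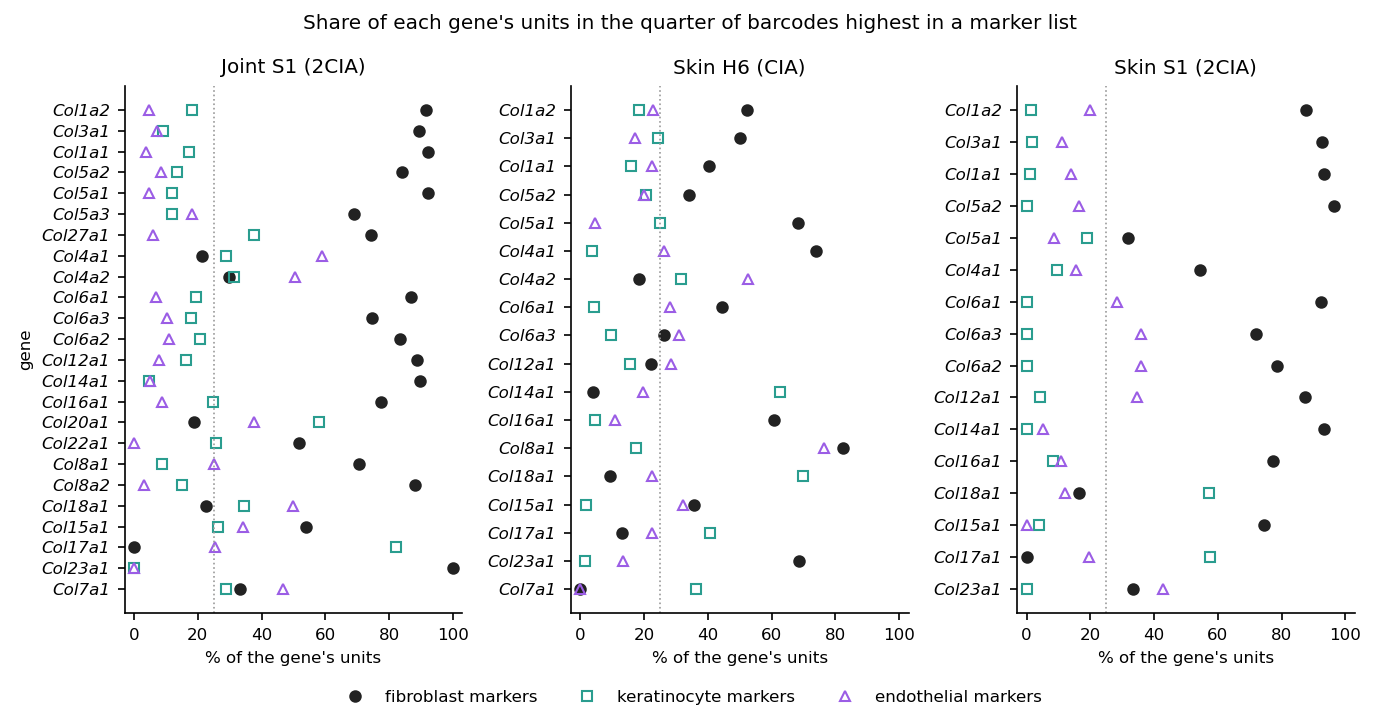
Percent of each member's units (horizontal axis) that lay in the 25% of barcodes highest in fibroblast, keratinocyte or endothelial markers, for the 2CIA library of the CIA joint and the 2 skin libraries; the dotted line is 25%. Fibrillar chains sit at the right in fibroblast-marker barcodes of both CIA libraries, and Col17a1 at the left.

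Genes that act on collagens were read from the same fits. Among 29 genes of collagen synthesis and crosslinking, 7 reached the filter of the tissue comparison and 5 were called higher, beside 11.8% of all genes tested. As with the members, a gene low in blood and lymphoid organs reached the filter through the tissue organs, so these counts are a description. They were Serpinh1, the procollagen chaperone, at 2.84 ± 0.28 (log2(UPM + 10) scale, limma, adjusted p = 5.73e-10), Pcolce and Pcolce2, which assist removal of the C-terminal propeptide, at 2.65 and 2.36, and the prolyl hydroxylase subunits P4ha1 and P4hb, at 1.32 and 1.23. Lox, which starts crosslinks, stood at 80.9 UPM in the healthy joint, at 193 and 172 UPM in the CIA joint, and at 7.66 and 108 UPM in healthy and CIA skin. Among 11 genes of collagen breakdown and its inhibitors, 8 were tested and 7 called higher, with Mmp3, a stromelysin, at 4.41 ± 0.43 (limma, adjusted p = 4.91e-10) and Timp3, an inhibitor of such enzymes, at 4.19 ± 0.37 (limma, adjusted p = 6.53e-11). Of 8 receptor genes in the table, Itgb1 alone was tested and was called higher, by 1.33. In the joint comparison none of 12 synthesis, 10 breakdown and 2 receptor genes tested was called.

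Some of these genes differed widely between joint libraries. Mmp3 stood at 54.9 UPM in the healthy joint and at 724 and 6450.3 UPM in the 2CIA and CIA libraries of the CIA joint, and at 2640.5 and 2354 UPM in healthy and CIA skin. Timp1 stood at 71.7, 378 and 923 UPM in the joint libraries. Both CIA joint libraries were above the healthy one for these genes, in an order opposite to that of Col1a2 and Col1a1. The cartilage chain Col2a1 was listed in the 2CIA library of the CIA joint alone, at 1175 UPM, where all 7 chondrocyte markers were also above 0.

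Across the 26 mouse-by-organ sums, the genes outside the family whose log2 level was most like the mean of 7 members above the filter (scaled by the library total, under which Col6a1 did not reach it) were Lum, Fstl1 and Igfbp7 (Pearson r = 0.99), Bgn, Dpt, Cald1, Serpinh1, Sparc and Mmp2 (0.98) and Snhg18 (0.97), among 5409 genes compared. Each of the 7 members had an r of 0.92 (Col14a1) to 0.99 (Col1a2, Col3a1 and Col4a1) with the mean of the other members. The 26 points share mice, libraries and the gap between tissue and lymphoid organs, so these values are a description.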

How the data were processed

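The authors aligned Seq-Well reads to the mouse genome (GRCm38 in the methods; the labels' build list names other builds) with STAR, counted UMIs with the Drop-seq tools and smoothed the pilot libraries over nearest neighbours (k = 12). The deposited values are a signal: whole-number sums over neighbouring barcodes, not scaled, so no count model, counting interval or detection limit was used, although the tests written down had allowed for counts. Depth per library is given with the results. Units were summed per mouse and organ. Scaling was a trimmed mean of log ratios (30% of ratios and 5% of levels trimmed). Rows averaging under 25 UPM were dropped, and log2(UPM + 10) was fitted with limma 3.58.1 in R 4.3.3, with a mean-variance trend and two-sided tests. An adjusted p under 0.05 was a call, and such differences understate the change of low genes. The fits were tested on simulated data. Organs of 1 mouse share its label, so a fit with the mouse as a block was paired by animal. Symbols and gene positions come from the RefSeq gene table of GRCm38.p6, which named 21404 rows. Promoter windows come from RefSeq, and strands and overlaps from the GENCODE annotation of that build.

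Members, gene lists and tests were chosen with earlier results of these data known. Named were members with at least 50 units, up to 5 called members per direction with the smallest p (2 if none was called), up to 3 members per direction with the largest ratio in single-mouse organs, and the 10 genes most alike. Nothing says that the mice came from separate cages or litters, and p-values measure the spread between these mice, pooled over the organs in a fit. Alternatives were other scalings, pseudocounts, filters and variance models, distinct profiles, left-out mice and subsets of libraries. Leaving out lung, leaving out the 2CIA library of the CIA joint and scaling by fibroblast markers were chosen after seeing the data.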

Additional observations from a re-analysis of the deposited data

Results flagged for a closer look

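In healthy blood a single mouse was above 0 for chains that were listed at 0 in the other 3 healthy mice: Col23a1 at 11.1 UPM and Col27a1 at 4.29 UPM in H7, and Col26a1 at 6.55 UPM in H6. With 3 of 4 mice at 0, any value above 0 in the fourth stands apart by the gap measure used, so the usual chance rate of about 1 in 20 groups does not apply and these values say no more than that 1 mouse was above 0. All 3 chains were also above 0 in skin.

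Col14a1 moved in opposite directions between organs: its log2 ratio of CIA to healthy was -0.77 in the joint, 1.93 in skin and 4.13 in muscle. With each distinct profile counted once the skin ratio was 0.05, and with trimmed-mean scaling the joint ratio was -0.09. Each value comes from 1 mouse per state, and the difference between organs was not tested. Per unit of the fibroblast markers the joint ratio was 1.06, the skin ratio 0.71 and the muscle ratio -0.47. Joint and skin then had the same sign, and joint and muscle opposite signs in the other order. That scaling moves all genes of an organ by the same amount, so these signs are not particular to Col14a1. Under it 70.7% of joint, 6.47% of skin and 0.280% of muscle genes were over 1.5-fold higher.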

How the results depend on the processing

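In the comparison of tissue with lymphoid organs and blood, the calls are no measure of stability, since members reached the filter through the organs where they are high. The number called was 8 as reported, 20 without a filter, 3 with healthy mice alone, 12 with CIA mice alone, 11 with libraries ending in 2CIA alone and 5 without the 2CIA library of the CIA joint. Leaving out 1 mouse in turn gave 3 to 8, with 3 without S1. With the mouse block all 8 were called.

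In the joint comparison, the 4 called members became 1 with the library total, 2 with the median of ratios, 0 with a pseudocount of 1, 0 without a filter, 0 without a mean-variance trend, 1 without the 2CIA library of the CIA joint, 0 without lung and 0 with the replicate block, paired by mouse. Without H3, the one mouse that could be left out, 0 were called, and the fits without S1, without H6 and with 2CIA libraries alone could not be made. The median over all genes was 0.29 as reported, 0.03 with the library total and 0.19 with the median of ratios. Col17a1 turned to 0.70 with the block and 0.69 without H3, fits in which the joint difference rests on S1 alone. Without the 2CIA library of the CIA joint, Col14a1 turned to -0.49, Col16a1 to -0.22, Col6a1 to -0.14 and Col6a3 to -0.46. The causes were not tested. In blood and lymph node no member reached the filter under any alternative that had one, so those counts of 0 test nothing. The block was run there for lymph node against blood alone. Beyond the joint comparison, the block changed no call on a member.

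For the summed members, the joint log2 ratio of 1.68 was 2.36 with trimmed-mean scaling, 3.52 per fibroblast-marker unit and 0.47 from the CIA-ending library. The skin ratio of 1.90 was 0.43 with distinct profiles and 0.68 per fibroblast-marker unit. The muscle ratio of 4.55 turned to -0.05 per fibroblast-marker unit, as did Col4a1 (-1.36), Col1a1 (-0.92), Col1a2 (-0.79) and Col14a1 (-0.47), and joint Col14a1 turned to 1.06. That scaling moves all genes of an organ alike. With it 70.7% of joint and 0.280% of muscle genes were over 1.5-fold higher, so these turns are not particular to the members.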
